A study of Mus musculus with 8 samples.

Results

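The cells described here were 419 cells that carried the highest hypoxia score among CD45+ cells sorted from E0771 mammary tumors. They were labelled macrophages and monocytes, and 384 of them (91.6%) passed a marker gate for these cells, given below. The hypoxia score of a cell was the number of unique molecular identifiers (UMIs, each standing for 1 captured RNA molecule) from Bnip3, Ndrg1, Ankrd37, Hilpda and Ero1l per 10000 UMIs of that cell. Of 11430 deposited cells, 10605 had 500 to 6000 detected genes and less than 10% mitochondrial UMIs. Among these, 8375 cells had at least 2000 UMIs, no more than 1 UMI over Cd3d, Cd3e and Cd3g, and none of Ncr1, which left out most T and NK cells. The highest 5% of the 8375 cells, ranked over all mice together, were taken as high-score cells, and the remaining 7956 are called the other cells. The score genes chose the cells, so they were left out of every comparison and are given as a description only.

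Cells that lack oxygen stabilize the HIF-1α and HIF-2α proteins, because the prolyl hydroxylases that mark these factors for destruction by the VHL ubiquitin ligase need oxygen. HIF then binds letters such as ACGTG near its target genes and raises glucose uptake, glycolysis, lactate export, mitophagy and angiogenic signals. Macrophages and monocytes are known to collect in poorly perfused areas of tumors, where HIF targets such as Vegfa and Slc2a1 are part of their response.

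E0771 is a mouse mammary cancer line, and its tumors were grown in the mammary fat pad of female mice and taken on day 18 after implantation. Parental (naive) E0771 tumors were available from 2 mice, and tumors of the resistant derivatives E0771-Res1 and E0771-Res2 from 3 mice each. Each derivative is a cell line grown out from a tumor that had relapsed after paclitaxel plus anti–PD-1, so the 3 mice of a resistant group carried tumors of the same line, and the labels name no treatment of the 8 mice. Tumors were minced and digested with collagenase before sorting, and cells of all mice were tagged, pooled and sequenced from the 3′ end of RNA. The number of cells per mouse ran from 644 to 2189, the total from 5036667 to 18894504 UMIs, and the median per cell from 5341 to 7832 UMIs. No cell barcode occurred in more than 1 mouse.

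High-score cells were found in all 8 mice. They made up 5.46% (47 of 861 cells, 95% exact binomial interval 4.04 to 7.19) and 3.77% (18 of 478, interval 2.25 to 5.89) of the cells in the parental mice. The shares were 4.70%, 6.60% and 4.40% in the E0771-Res1 mice (75 of 1597, 32 of 485 and 32 of 728 cells). In the E0771-Res2 mice they were 4.51%, 4.86% and 5.83% (68 of 1508, 57 of 1173 and 90 of 1545 cells). Group means were 4.61% ± 1.20 (SD, n = 2) for parental, 5.23% ± 1.19 (n = 3) for E0771-Res1 and 5.06% ± 0.68 (n = 3) for E0771-Res2, and the 3 groups overlapped. The intervals cover counting error only, and no test was made because the score itself sets these shares.

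**Figure D1:**
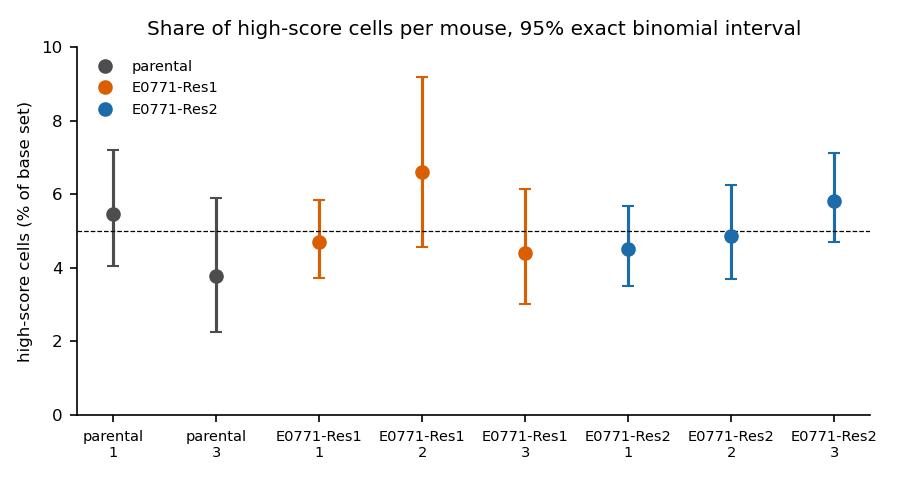
Share of high-score cells among the 8375 cells of the base set, in percent, for each mouse, with bars for the 95% exact binomial interval and a dashed line at 5%, the share over all mice. The intervals of all 8 mice overlap, and the points run from 3.77% (parental 3) to 6.60% (E0771-Res1 2).

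The lowest high-score cell had 13.5 score UMIs per 10000, as did the highest of the other cells, and the medians were 20.6 and 1.15 per 10000. Hilpda, which binds the lipase of lipid droplets and slows fat breakdown, gave 53.1% of the score UMIs in high-score cells. Its level was 1390 CPM (UMIs of a gene per 1000000 UMIs, taken over the summed UMIs of all cells of a kind) in high-score cells and 64.7 CPM in the other cells. Bnip3, a receptor for mitophagy, was at 344 against 35.6 CPM, and Ndrg1, a stress-induced differentiation gene, at 293 against 43.8 CPM. Ankrd37, a small ankyrin-repeat protein, was at 166 against 18.1 CPM, and Ero1l, the oxidase that drives disulfide formation in the endoplasmic reticulum (ER), at 424 against 38.8 CPM. Most high-score cells held several of these RNAs: 105 cells had UMIs of all 5 genes, 138 of 4, 101 of 3, 57 of 2 and 18 of 1 gene, 16 of them by Hilpda alone. Other forms of the rule kept a large part of the same cells, with 394 of the 419 chosen again when ranks were taken within each mouse, 307 after thinning each cell to 2000 UMIs, and 271 when Hilpda was left out of the score.

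The promoters of 4 of the score genes hold the HIF core letters, and they are printed here together with those of Slc2a1, Ldha and Egln3, which carry much of the result described next. Sequences are from RefSeq (GRCm38.p6) and run 5′ to 3′ on the strand of the gene, from 250 bases before to 50 bases after the gene start. Capitals mark ACGTG or, for a match on the opposite strand, CACGT, and in CACGTG, which is also the E-box bound by other factors, both matches overlap. Hilpda and Ldha have 2 windows each, of which the one with the most matches is shown, and the other holds no match. No window was matched for Ndrg1.
Hilpda, chr6:29272376-29272675, plus strand: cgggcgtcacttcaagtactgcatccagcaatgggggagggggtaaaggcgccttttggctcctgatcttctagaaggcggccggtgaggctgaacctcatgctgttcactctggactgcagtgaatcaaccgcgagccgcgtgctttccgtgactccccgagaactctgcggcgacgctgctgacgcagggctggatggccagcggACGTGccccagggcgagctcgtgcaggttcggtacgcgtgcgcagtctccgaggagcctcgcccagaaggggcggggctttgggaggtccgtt
Bnip3, chr7:138909457-138909756, minus strand: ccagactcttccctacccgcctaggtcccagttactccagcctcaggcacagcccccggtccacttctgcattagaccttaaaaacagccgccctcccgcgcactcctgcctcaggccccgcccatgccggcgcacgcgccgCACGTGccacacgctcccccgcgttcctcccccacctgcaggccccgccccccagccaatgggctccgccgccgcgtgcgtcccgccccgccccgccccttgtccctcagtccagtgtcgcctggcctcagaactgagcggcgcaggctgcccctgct
Ankrd37, chr8:45999801-46000100, minus strand: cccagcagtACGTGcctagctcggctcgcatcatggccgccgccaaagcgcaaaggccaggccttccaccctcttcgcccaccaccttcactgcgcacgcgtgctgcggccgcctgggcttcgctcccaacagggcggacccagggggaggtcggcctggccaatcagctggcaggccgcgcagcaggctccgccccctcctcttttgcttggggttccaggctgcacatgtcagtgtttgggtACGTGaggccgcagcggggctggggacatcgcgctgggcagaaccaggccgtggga
Ero1l, chr14:45318523-45318822, minus strand: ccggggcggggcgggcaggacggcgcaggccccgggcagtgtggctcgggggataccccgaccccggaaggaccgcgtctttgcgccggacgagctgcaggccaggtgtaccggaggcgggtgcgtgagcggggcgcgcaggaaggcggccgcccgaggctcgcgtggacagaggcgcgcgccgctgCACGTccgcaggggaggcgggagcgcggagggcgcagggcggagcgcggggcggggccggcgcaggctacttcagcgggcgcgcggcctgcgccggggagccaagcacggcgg
Slc2a1, chr4:119108495-119108794, plus strand: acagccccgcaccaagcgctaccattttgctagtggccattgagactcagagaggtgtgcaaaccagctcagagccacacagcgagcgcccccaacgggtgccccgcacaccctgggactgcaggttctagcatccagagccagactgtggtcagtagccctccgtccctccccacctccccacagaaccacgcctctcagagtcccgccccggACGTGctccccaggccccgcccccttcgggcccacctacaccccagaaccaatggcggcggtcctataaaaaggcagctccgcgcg
Ldha, chr7:46845554-46845853, plus strand: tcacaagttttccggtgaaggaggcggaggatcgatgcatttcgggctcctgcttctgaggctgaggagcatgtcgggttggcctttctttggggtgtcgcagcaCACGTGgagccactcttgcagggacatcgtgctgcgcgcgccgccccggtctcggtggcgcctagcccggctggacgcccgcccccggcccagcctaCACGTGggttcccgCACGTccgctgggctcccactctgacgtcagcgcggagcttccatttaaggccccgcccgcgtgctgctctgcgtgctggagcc
Egln3, chr12:54203825-54204124, minus strand: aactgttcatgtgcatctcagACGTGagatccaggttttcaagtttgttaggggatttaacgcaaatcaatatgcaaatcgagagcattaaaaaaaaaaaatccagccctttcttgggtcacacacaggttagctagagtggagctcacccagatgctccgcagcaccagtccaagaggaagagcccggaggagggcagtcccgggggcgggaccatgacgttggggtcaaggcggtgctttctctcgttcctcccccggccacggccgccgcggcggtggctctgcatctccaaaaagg

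In these windows the first base of a match lay at -43 in Hilpda, at -108 and -107 in Bnip3, at -241 and -6 in Ankrd37, at -63 in Ero1l, at -36 in Slc2a1 and at -229 in Egln3, counted from the gene start, while Ldha held 5 matches. Of 32851 promoter windows in the table, 19.6% held at least 1 match. By gene, counting any of its windows, the share was 21.8% of all 27025 genes, 31.1% of the 6791 tested genes with a window, 39.4% of the 922 genes higher in high-score cells and 22.1% of the 801 genes lower in them. Of 22 glycolysis genes with a window 15 held a match (68.2%), as did 16 of 23 other HIF targets (69.6%). A match describes letters in the window and was not tested as a binding site. Other letters that HIF may bind were not searched for.

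The cells carried macrophage and monocyte RNA as their label says. All 9 macrophage markers and all 9 monocyte markers on the lists were detected in high-score cells. Summed macrophage markers stood at 6916 ± 1445 CPM in high-score cells against 9908 ± 1972 CPM in the other cells (mean ± SD, n = 8 mice), with Apoe the most abundant, and summed monocyte markers at 3829 ± 1182 against 5988 ± 1517 CPM, with Plac8 the most abundant. A marker gate (at least 5 UMIs over Csf1r, Adgre1, Cd14, Lyz2 and Cd68, no more than 1 over Krt8, Krt18, Epcam, Col1a1 and Col3a1, and none of Flt3, Zbtb46, Ccr7 and Cd79a) was passed by 384 high-score cells (91.6%) and by 86.3% of the other cells. Markers of other cells were low. T and NK markers summed to 74.0 CPM in high-score cells and 124 CPM in the other cells, dendritic cell markers to 76.3 and 189 CPM, and B and plasmacytoid cell markers to 3.3 and 25.5 CPM. Tumor epithelial markers were at 12.4 and 12.7 CPM, with Epcam, Krt18, Krt19 and Cldn4 at 0 in high-score cells. Mast cell and basophil markers were at 1.1 and 1.9 CPM and erythroid markers at 10.5 and 9.4 CPM.

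Fibroblast and endothelial markers were higher in sum, at 156 CPM against 96.3 CPM, most of it Kdr, and Dcn was at 0. In this list Kdr, a VEGF receptor, and Sparc, a matrix protein, passed the test described next, while 75.6% of all Sparc UMIs in high-score cells came from 1 cell of the E0771-Res2 2 mouse, and without that mouse Sparc no longer passed (log2 fold change 0.62, adjusted p = 0.378). Kdr did not pass without the mouse as a block (adjusted p = 0.0531) or with Hilpda left out of the score (0.24, adjusted p = 0.201). Neutrophil markers summed to 159 against 128 CPM, with Camp, Ly6g and Ngp at 0. Of 4 neutrophil markers tested 1 was higher, Mmp8, a neutrophil collagenase (1.77 ± 0.21, adjusted p = 3.4e-07), which had UMIs in 13.6% of high-score cells and 7.86% of the other cells. In E0771-Res1 2 the neutrophil sum was 512 CPM, and 95.5% of the S100a9 UMIs of high-score cells came from 1 cell of that mouse.

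High-score cells differed from the other cells of the same mice in a large share of genes. The counts of each state were summed per mouse and compared with edgeR's quasi-likelihood test with the mouse as a block, and a gene was called at an adjusted p under 0.05. Of 8373 genes tested 2166 were called (25.9%), of which 1154 (13.8%) were higher and 1012 (12.1%) lower in high-score cells, and the median log2 fold change of all genes was -0.03. The genes below are read against these shares, and the gene lists were drawn up with earlier results of these data known.

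Glycolysis rose almost as a whole. HIF raises glycolysis as well as the score genes, so this rise is not independent of how the cells were chosen. Of 20 tested genes of glucose uptake and glycolysis 18 were higher and none was lower, with a median log2 fold change of 1.48. Slc2a1, the glucose transporter GLUT1, had a lowest, median and highest level over the 8 mice of 218, 280 and 322 CPM in high-score cells and of 40.9, 46.3 and 57.0 CPM in the other cells. The lowest mouse in high-score cells thus lay above the highest mouse in the other cells, and Slc2a1 had the lowest p of all genes (log2 fold change 2.65 ± 0.09 (SE), adjusted p = 1.5e-16, higher in 8 of 8 mice). Pgk1, which makes ATP in lower glycolysis, ran from 836 to 1278 CPM (median 1063) in high-score cells and from 265 to 368 CPM (median 293) in the other cells. Ldha, which turns pyruvate into lactate, ran from 1134 to 1442 CPM (median 1279) against 448 to 526 CPM (median 478). Neither gene overlapped between the states (log2 fold changes 1.88 ± 0.07 and 1.49 ± 0.07). The lactate exporter Slc16a3 rose by 1.75 on the log2 scale, and the abundant enzymes Tpi1, Aldoa, Gapdh and Pkm by 1.93, 1.63, 1.30 and 1.05. Pdk1, which keeps pyruvate out of mitochondria, rose by 1.49 and Pfkfb3, an activator of phosphofructokinase, by 1.29. The 2 tested genes that did not pass were Pfkfb4 (0.08 ± 0.20) and Pgm2 (0.02 ± 0.22).

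Of 25 other HIF targets tested, 22 were higher and 1 was lower, with a median of 1.38. These genes share their regulator with the score genes, so their rise is not independent of how the cells were chosen. Egln3, the oxygen-sensing prolyl hydroxylase PHD3 and itself a HIF target, was at 81.5 and 122 CPM in high-score cells of the parental mice, at 77.2, 133 and 50.6 CPM in the E0771-Res1 mice, and at 45.2, 58.6 and 46.6 CPM in the E0771-Res2 mice. In the other cells it was at 5.52 and 0.763 CPM in parental mice, at 3.57, 8.41 and 4.35 CPM in E0771-Res1 and at 4.31, 4.02 and 4.74 CPM in E0771-Res2. Every mouse was higher in high-score cells, without overlap (log2 fold change 4.09 ± 0.24). Vegfa, the main growth factor of blood vessels, ran from 35.9 to 238 CPM (median 130) in high-score cells and from 18.3 to 33.7 CPM (median 22.0) in the other cells, with the parental 3 mouse lowest in high-score cells (2.61 ± 0.16). Mxi1, a MYC antagonist, rose by 2.56, Ddit4, an inhibitor of mTORC1, by 2.07, Higd1a, a mitochondrial survival protein, by 1.66, Mif, a macrophage cytokine, by 1.57, and Bnip3l, a mitophagy receptor, by 1.38. Pdgfb fell by 0.61, and Tfrc (0.27 ± 0.27) and Car9 (-0.59 ± 0.47) did not pass.

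Among 12 tested regulators of HIF, 4 were higher and none was lower. Egln1 (PHD2), the main oxygen sensor and also a HIF target, rose by 1.90 ± 0.11, Vhl by 0.95 ± 0.18, Hif1a itself by 0.89 ± 0.11 and its partner Arnt by 0.58 ± 0.17. The other 8 did not pass, and their log2 fold changes ran from -0.05 (Elob, a subunit of the VHL ligase) to 0.80 (Hif1an, the asparagine hydroxylase FIH).

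Genes of mitophagy and of the ER moved less. Of 14 mitophagy and autophagy genes tested, 6 were higher and none was lower, among them the autophagy kinase Ulk1 (0.87 ± 0.28) and the cargo receptor Sqstm1 (0.75 ± 0.08). Of 18 genes of the ER stress response and its chaperones, 10 were higher and 1 was lower. The chaperone Hspa5 (BiP) rose by 0.74 ± 0.07 and the stress-induced factor Ddit3 (CHOP) by 0.99 ± 0.10, while Herpud1, a gene of ER-associated degradation, fell by 0.53. None of 31 nuclear genes of oxidative phosphorylation was higher and 7 were lower. Ndufa4, a subunit at the end of the respiratory chain, had a lowest, median and highest level of 153, 178 and 199 CPM in high-score cells and of 253, 302 and 331 CPM in the other cells, so that every mouse was lower without overlap (-0.65 ± 0.08). The mitochondrially encoded share of UMIs was lower as well, at 1.20% in high-score cells and 1.60% in the other cells (difference -0.40 ± 0.11 percentage points (SD, n = 8), lower in 8 of 8 mice, exact sign-flip permutation p = 0.0078, adjusted 0.0117, the smallest p that 8 mice allow being 0.0078).

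Antioxidant and iron-handling genes of the NRF2 program rose. Of 14 tested, 12 were higher and 1 was lower, with a median of 0.90. Hmox1, which breaks down heme and answers to HIF as well as NRF2, was at 783 and 667 CPM in the parental mice, 1493, 3010 and 1403 CPM in E0771-Res1 and 1240, 2022 and 990.5 CPM in E0771-Res2 in high-score cells. In the other cells it was at 211 and 173 CPM in the parental mice, 317, 1077 and 248 CPM in E0771-Res1 and 202, 260.1 and 231 CPM in E0771-Res2. Hmox1 was higher in high-score cells of all 8 mice (2.34 ± 0.11), but the states overlapped between mice because the other cells of E0771-Res1 2 stood far above those of the remaining mice. Fth1, the ferritin heavy chain that stores iron, ran at 34215, 40144 and 52426 CPM (lowest, median and highest) against 17187, 19822 and 26995 CPM, without overlap (1.11 ± 0.05). Gclm, a subunit of the enzyme that limits glutathione synthesis, rose by 1.30 ± 0.16, and G6pdx, the entry to the pentose phosphate pathway, fell by 0.50.

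**Figure D2:**
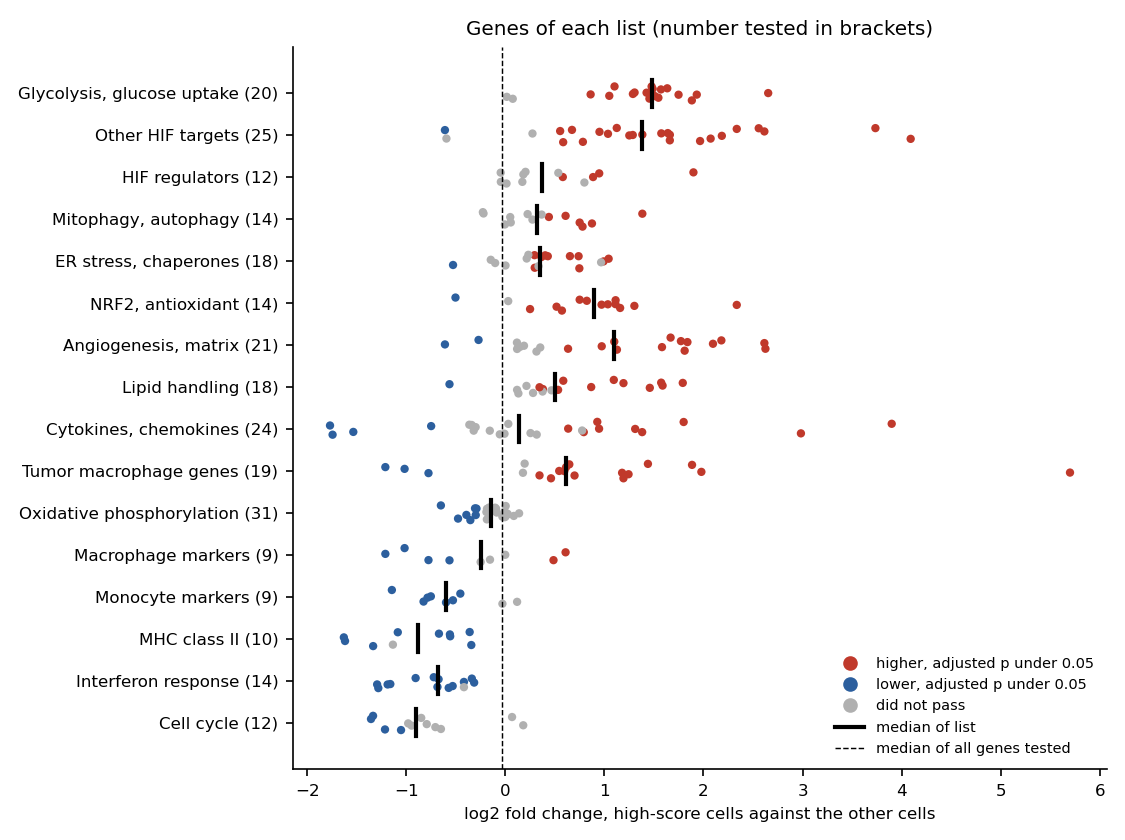
Log2 fold change of high-score cells against the other cells for each tested gene of 16 lists, with red dots for genes called higher, blue for genes called lower and grey for genes not called. Bars mark the median of a list and the dashed line the median of all tested genes (-0.03), and the glycolysis and other HIF target lists lie farthest above it, with medians of 1.48 and 1.38.

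Genes of blood vessel growth and matrix were mostly higher, 13 of 21 tested against 2 lower, with a median of 1.10. Spp1, which encodes the secreted matrix protein osteopontin (chr5:104435118-104441050, mm10), was at 1549 and 3244 CPM in the parental mice, 1202, 2071 and 923 CPM in E0771-Res1 and 1203, 1063 and 412 CPM in E0771-Res2 in high-score cells. In the other cells it was at 170.0 and 155 CPM in the parental mice, 270.1, 329 and 213 CPM in E0771-Res1 and 180.5, 364 and 152 CPM in E0771-Res2. All 8 mice were higher in high-score cells, the states did not overlap, and parental 3 was the highest (2.63 ± 0.20). In parental 3, 63.3% of these UMIs came from 1 of 18 cells, and without that cell its level was 1294 CPM. Pgf, a VEGF family growth factor, rose by 2.18 ± 0.19 and Thbs1, an inhibitor of vessel growth, by 1.67 ± 0.12. The matrix proteases Mmp12 (1.84 ± 0.17) and Mmp13 (1.81 ± 0.22) rose too, with levels that differed between tumor lines as given later. The list's lower genes were Pdgfb, a growth factor for mural cells, and Tgfb1 (-0.27 ± 0.08), which did not pass with the highest 10% of cells (adjusted p = 0.106) or without E0771-Res2 1 (0.0575).

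Several of these genes were present in part of the high-score cells. Spp1 UMIs were found in 42.5% of high-score cells, in 25.5% of the other cells and in 27.2% of 1058 cells with at least 2 Cd3 UMIs. The median depths were 6999, 7363 and 9310 UMIs in that order. Thinned to 2000 UMIs per cell, the shares were 32.2%, 13.0% and 11.2%. For Vegfa they were 39.9%, 12.1% and 12.3%, for Mmp12 38.4%, 20.2% and 21.1%, and for Mmp13 19.6%, 11.6% and 12.2% before thinning. The shares of the other cells thus lay close to those of the Cd3 cells, and those of high-score cells lay above both. Whether these UMIs were made by the cells that held them was not tested. Slc2a1 was found in 69.2% of high-score cells, 25.7% of the other cells and 31.9% of Cd3 cells, and Egln3 in 26.5%, 2.97% and 6.99%. After thinning these shares were 39.1%, 8.87% and 7.94% for Slc2a1 and 10.5%, 0.93% and 1.80% for Egln3.

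Lipid genes were higher in 11 of 18 tested and lower in 1. Plin2, which coats lipid droplets, ran at 1091, 1453 and 1800 CPM (lowest, median and highest mouse) against 442, 533 and 743 CPM in the other cells, without overlap (1.46 ± 0.07). The fatty acid carriers Fabp4 and Fabp5 rose by 1.57 and 1.19, the scavenger receptor Cd36 by 1.79 and the cholesterol exporter Abca1 by 1.59. Apoe, the lipoprotein of many tissue macrophages, fell by 0.56.

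Of 19 genes known from tumor macrophages, 14 were higher and 3 were lower. Lgals3, which encodes galectin-3, ran at 8470, 9252 and 10917 CPM against 3621, 4107 and 5357 CPM, Cd9, a tetraspanin, at 257, 450.1 and 600.5 CPM against 80.4, 132 and 173 CPM, and Il7r, the interleukin-7 receptor, at 266, 439 and 495 CPM against 69.2, 80.1 and 202 CPM (lowest, median and highest mouse). None of these overlapped between the states (1.24 ± 0.07, 1.88 ± 0.12 and 1.98 ± 0.13). Gpnmb, a membrane protein of lipid-laden macrophages, rose by 1.18, the mannose receptor Mrc1 by 0.65 and Cd274 (PD-L1) by 0.61. The lower genes were the complement genes C1qa, C1qb and C1qc. Trem2 (0.20 ± 0.14) and Folr2 (0.18 ± 0.30), markers of other tumor macrophage states, did not pass.

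Of 24 inflammatory cytokine and chemokine genes tested, 9 were higher, 4 were lower and 11 did not pass. The higher genes included the neutrophil-attracting Cxcl2, Il1a (2.98 ± 0.30), Ptgs2, the prostaglandin synthase COX-2 (1.80 ± 0.11), and Il1rn, the antagonist of interleukin-1 (1.31 ± 0.08). The neutrophil-attracting chemokine Cxcl3 (3.90 ± 0.38) rose as well but was found in 46 high-score cells, and 42.5% of its UMIs came from 1 cell. Il1b did not pass (0.32 ± 0.13). The 4 lower genes were Cxcl9, Cxcl10, Ccl8 and Ccl12. Cxcl10, an interferon-induced chemokine that attracts T cells, ran at 122, 409 and 718 CPM (lowest, median and highest mouse) in high-score cells and at 1104, 1568 and 1750 CPM in the other cells. Every mouse was lower and the states did not overlap (-1.77 ± 0.18). Cxcl9, which acts through the same receptor, fell by 1.74.

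Interferon-response genes were lower in 13 of 14 tested and higher in none, with a median of -0.68. Ifit2, an antiviral RNA-binding protein, ran at 71.4, 128 and 261 CPM against 300.5, 368 and 478 CPM, without overlap (-1.29 ± 0.15). Isg15, a ubiquitin-like protein, fell by 0.68, and Gbp2 did not pass (-0.42 ± 0.16). Among the lower genes, Irf7 (-0.34) did not pass with DESeq2 (adjusted p = 0.057) or without the mouse as a block (0.285). It also failed without E0771-Res1 1 or E0771-Res1 3 (adjusted p = 0.057 and 0.073). Bst2 (-0.31) did not pass without the mouse as a block (adjusted p = 0.161). Genes of MHC class II antigen presentation were lower in 9 of 10 tested, with a median of -0.88. Ciita, the master activator of the class, fell by 1.63, H2-DMb1, which helps to load peptides, by 1.08, and H2-Ab1, a chain of the presenting molecule, by 0.56. H2-Ab1 ran at 887, 1614 and 2921 CPM against 1652, 2573 and 4068 CPM, which overlapped between mice. The invariant chain Cd74 (-0.34 ± 0.07) and H2-Aa no longer passed when Hilpda was left out of the score (adjusted p = 0.128 and 0.121), and without the mouse as a block Cd74, H2-Aa, H2-Ab1 and H2-Eb1 did not pass either (adjusted p = 0.275, 0.369, 0.092 and 0.127).

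Markers of cell identity shifted along with these genes. Of 9 macrophage markers 2 were higher, including the lysosomal Cd68 (0.49 ± 0.07), and C1qa, C1qb, C1qc and Apoe were lower. C1qa ran at 179, 723 and 1283 CPM against 1280, 1544 and 2609 CPM, lower in 8 of 8 mice with an overlap between mice (-1.21 ± 0.14). Csf1r, the receptor for the macrophage growth factor (-0.15 ± 0.09), and Adgre1, which encodes F4/80 (-0.25 ± 0.12), did not pass. Of 9 monocyte markers 7 were lower, including Ly6c2 (-0.45 ± 0.11), Ccr2, the receptor that brings monocytes into tissue (-0.53 ± 0.10), and Chil3 (-0.82 ± 0.17). Dendritic cell genes Ccr7 and Fscn1, B cell Cd79b and the cytotoxic genes Gzma and Nkg7 were lower. On the same lists the dendritic cell genes Cd209a (-0.25) and Cacnb3 (-1.05) and the T cell genes Cd4 (-0.43) and Trbc2 (-0.15) did not pass. Of 12 cell cycle genes 4 were lower and none was higher. Gzma stood at -0.21 (adjusted p = 0.70) in cells chosen after thinning and did not pass there. With Hilpda left out of the score, Fscn1 stood at -0.57 (0.273) and Nkg7 at -0.26 (0.422), and neither passed. Ly6c2 did not pass without the mouse as a block (adjusted p = 0.108) or after thinning (-0.26, adjusted p = 0.109). The part of cells of other types in the genes described here was not tested.

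The largest falls among genes that moved in the same direction in every mouse included Tmem176a and Tmem176b, a pair of membrane proteins of immature dendritic cells and macrophages (-2.15 and -1.99), Cx3cr1, the fractalkine receptor of patrolling monocytes (-1.99), and Ccnd1, cyclin D1 (-1.78). Ccnd1 ran at 33.1, 43.8 and 78.9 CPM against 138, 174 and 195 CPM and Cx3cr1 at 4.03, 7.70 and 22.9 CPM against 36.5, 48.8 and 74.6 CPM, both without overlap. The rises included Impa2, an inositol monophosphatase (2.61), Flrt3, an adhesion protein (2.47), and Lhfpl2 (2.26). Of 71 named genes called in this comparison, 55 were called under every alternative processing.

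Genes that respond to tissue dissociation were mixed, with 5 of 13 higher and 2 lower. The rises were heat shock genes, Hspa1a (2.22 ± 0.15), Hspa1b (2.20 ± 0.19), Hsph1 (1.85 ± 0.20), Dnajb1 (1.15 ± 0.12) and Hspa8 (0.32), which encode chaperones of unfolded proteins, and Hspa8 did not pass without the mouse as a block (adjusted p = 0.056). The immediate early genes Fos (-0.18) and Jun (0.06) did not pass, while Ier2 and Zfp36 fell by 0.27 and 0.26. The part of dissociation in these values was not tested. High-score cells also held fewer UMIs, with a mean over mice of the median of 6982 against 7546 (difference -565 ± 608 (SD, n = 8), lower in 6 of 8 mice, exact permutation p = 0.0469, adjusted 0.0469), a call that was lost when any of 6 of the 8 mice was left out, that is all but E0771-Res1 1 and E0771-Res2 3 (adjusted p of 0.0625 to 0.0938), and with ranks within each mouse (0.0625). They held fewer detected genes, 2016 against 2223 (difference -207 ± 114, lower in 8 of 8 mice, exact permutation p = 0.0078, adjusted 0.0117). The UMI total is the denominator of the score, and in cells chosen after thinning the differences were -87.7 UMIs (adjusted p = 0.734 by the exact permutation test) and -92.5 genes (adjusted p = 0.152).

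Gene lists also moved with the score among cells that were not in the highest 5%. Summed glycolysis genes were at 4204, 5391, 7570, 9987 and 13582 CPM from the lowest score bin to the highest (means over 8 mice), and other HIF targets at 1590, 1922, 2601, 3369 and 5203 CPM. Interferon genes stood at 8254, 7261, 6697, 6027 and 4809 CPM, falling at each step. MHC class II genes stood at 14210, 15069, 13219, 11446 and 10010 CPM, with the second bin the highest. These bins are cut from the score and are a description.

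**Figure D3:**
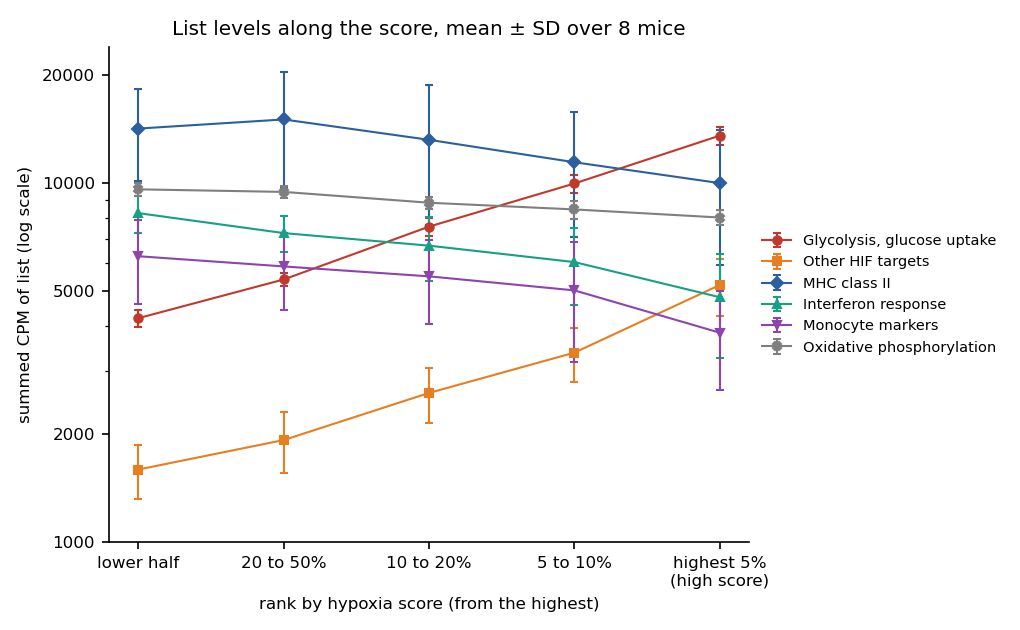
Summed level of gene lists in CPM (log scale) in 5 bins of cells ranked by hypoxia score, with points for the mean over 8 mice and bars for the SD. Glycolysis genes rise from 4204 to 13582 CPM and interferon genes fall from 8254 to 4809 CPM between the lowest and the highest bin.

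The next comparisons asked whether high-score cells differed between the tumor lines. High-score cells of the 8 mice were summed per mouse and fitted together over 4776 genes, and the parental group, with 2 mice and 47 and 18 cells, limits what its comparisons can show. E0771-Res1 against parental gave 3 genes higher (0.0628% of those tested) and 0 lower by edgeR, with 174 lower genes at an unadjusted p under 0.05, and DESeq2 called 7 higher and 1 lower. The 3 were Mmp12 (3.18 ± 0.37, adjusted p = 0.000964), a macrophage elastase, Mmp13 (2.85 ± 0.36, adjusted p = 0.00115), a collagenase encoded near it on chromosome 9, and the chaperone gene Hsph1 (3.01 ± 0.46, adjusted p = 0.00906). Mmp12 levels in high-score cells were 96.1 and 100.5 CPM in the parental mice, 1076, 496 and 1013 CPM in E0771-Res1 and 347, 592 and 340.3 CPM in E0771-Res2. The parental mice were the lowest 2 of the 8. Mmp13 levels were 46.6 and 50.2 CPM in the parental mice, 306, 355 and 355 CPM in E0771-Res1 and 121, 105 and 50.2 CPM in E0771-Res2, with the 3 E0771-Res1 mice above the rest. Without its cell with the most Mmp13 UMIs, E0771-Res1 3 was at 96.3 CPM, below E0771-Res2 1 and E0771-Res2 2. Without parental 1 none of the 3 genes passed, with log2 fold changes of 3.12, 2.75 and 2.08 for Mmp12, Mmp13 and Hsph1 (adjusted p = 0.132, 0.153 and 0.596). That leaves 1 parental mouse of 18 cells, which is assumed to vary like the other groups. Mmp13 also failed without cells of high UMI count (adjusted p = 0.41) and without 1 cell of E0771-Res1 3 (0.229, against 0.0498 without the highest cell of each mouse) and Hsph1 without E0771-Res1 1 (0.0515), and 74.7% of the Mmp13 UMIs of the mouse E0771-Res1 3 came from 1 cell.

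E0771-Res2 against parental gave 19 calls (0.398%), with 11 genes higher (0.23%) and 8 lower (0.168%). Higher were Tnni2, a troponin gene (3.25 ± 0.57), Fabp4 (3.04 ± 0.41, adjusted p = 0.0033), Hsph1 (2.61 ± 0.46), Igf1, a growth factor of tissue macrophages (2.59 ± 0.46), and Mmp12 (2.15 ± 0.37). Lower were Areg, an EGF receptor ligand (-4.75 ± 0.80), Il1r2, the interleukin-1 decoy receptor (-2.96 ± 0.39, adjusted p = 0.0033), the protease Mmp19 (-2.19 ± 0.44), Pkib (-2.16 ± 0.45) and Mcemp1 (-1.65 ± 0.31). Fabp4 was at 26.2 and 28.7 CPM in the parental mice, 151, 101 and 113 CPM in E0771-Res1 and 139.8, 286 and 229 CPM in E0771-Res2, so that both parental mice lay below all others. Il1r2 was at 262 and 380.3 CPM in the parental mice, 107, 254 and 148 CPM in E0771-Res1 and 37.0, 17.8 and 57.3 CPM in E0771-Res2, and the E0771-Res2 mice were the lowest 3. Areg was found in 14 high-score cells, with 52.9% of its UMIs in 1 cell, and without parental 1 its log2 fold change was -1.27 (adjusted p = 0.87). Tnni2 had no UMI in high-score cells of parental 3, so its size rests on parental 1. Of these genes only Il1r2 passed under all 15 alternatives (highest adjusted p = 0.0417), and Fabp4 failed without parental 1 (2.92, adjusted p = 0.096), where 1 parental mouse was left and the comparison gave 0 genes higher and 1 lower.

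E0771-Res2 against E0771-Res1 gave 6 genes higher (0.126%) and 5 lower (0.105%). Kdr (1.70 ± 0.25, adjusted p = 0.00835), the prostaglandin D synthase Hpgds (1.57 ± 0.27), Slamf7 (1.14 ± 0.19), Tnni2 and Rgl1 were higher in E0771-Res2, and Mmp13 (-1.89 ± 0.25, adjusted p = 0.00382), Il1r2 (-2.05 ± 0.37), Rgcc, Mcemp1 and Ptgs2 (-1.39 ± 0.24) were lower. Kdr was at 96.1 and 108 CPM in the parental mice, 34.0, 52.4 and 66.2 CPM in E0771-Res1 and 162, 145 and 154 CPM in E0771-Res2, where every E0771-Res2 mouse lay above every E0771-Res1 mouse. None of the 10 genes named here passed under every alternative, and Mmp13 failed when cells with more than 2 times the median UMIs of their mouse were left out (adjusted p = 0.118) and without 1 cell of E0771-Res1 3 (0.0698). Leaving out E0771-Res2 1 or E0771-Res2 3 left 0 genes higher.

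None of the 19 glycolysis genes and none of the 19 other HIF targets tested passed in any of the 3 comparisons of tumor lines. Over all 4776 genes the shares called were 0.0628% and 0.398% against parental (E0771-Res1 and E0771-Res2) and 0.23% for E0771-Res2 against E0771-Res1. With shares this low, a list this short without a call says little about the list. The median log2 fold changes of glycolysis genes were -0.04, -0.04 and -0.02, and those of other HIF targets 0.15, 0.16 and -0.03, for E0771-Res1 against parental, E0771-Res2 against parental and E0771-Res2 against E0771-Res1. MHC class II genes (6 tested, medians -0.04, -1.02 and -0.99) and interferon genes (14 tested, medians -0.77, -0.14 and 0.60) did not pass either. The comparisons with parental share its 2 mice.

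The change from the other cells to high-score cells was then compared between the 3 tumor lines, as 1 test of the difference of that change. It was called for 12 of 9526 genes (0.126%), 8 of them at an average log2 CPM of at least 5. That count moved several-fold under other processing, as the closing section gives. Mmp13 changed by 0.74, 2.69 and 0.99 on the log2 scale in parental, E0771-Res1 and E0771-Res2 tumors (adjusted p = 0.000638) and Mmp12 by 0.99, 2.58 and 1.31 (adjusted p = 0.00065). By mouse, the Mmp12 differences were 0.83 and 1.27 in the parental mice, 2.37, 2.37 and 2.98 in the E0771-Res1 mice, and 0.93, 1.79 and 1.19 in the E0771-Res2 mice, and the Mmp13 differences 0.54 and 1.13 in the parental mice, 2.15, 2.91 and 3.15 in the E0771-Res1 mice, and 1.43, 1.01 and 0.36 in the E0771-Res2 mice. All 3 E0771-Res1 mice lay above the 5 others for both genes, and both were called in all 13 alternatives chosen with the design. In E0771-Res1 3, 1 cell held 74.7% of the Mmp13 UMIs. Without it the difference of that mouse was 1.27, below the 1.43 of E0771-Res2 1, and the call was lost (adjusted p = 0.0604). Without the highest cell of each mouse, Mmp13 was called (adjusted p = 0.00617), with differences of 1.81, 2.33 and 1.24 in E0771-Res1 and at most 1.22 in the other mice. In both settings cells were picked by their Mmp13 UMIs after the data were seen and on the high-score side only, so neither settles the call. All 14 Mmp12 UMIs of high-score cells of parental 3 came from 1 cell. Spp1 rose most in parental tumors, by 3.82, 2.39 and 2.02 (adjusted p = 0.00139), and its differences by mouse were 3.24 and 4.43 in the parental mice, 2.27, 2.74 and 2.16 in the E0771-Res1 mice, and 2.86, 1.60 and 1.57 in the E0771-Res2 mice. Both parental mice lay above the 6 others, but the call was lost with DESeq2 (adjusted p = 0.273) and without parental 3 (0.155).

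**Figure D4:**
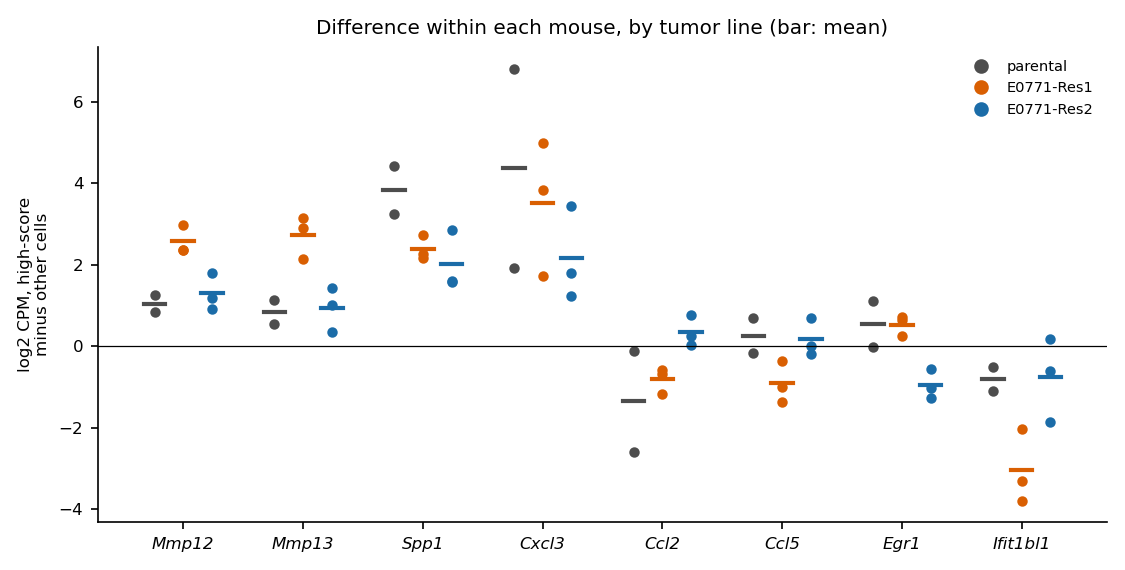
Difference in log2 CPM between high-score cells and the other cells of the same mouse for 8 genes, by tumor line, with a point for each mouse and a bar for the group mean. Mmp12 and Mmp13 are highest in the 3 E0771-Res1 mice and Spp1 in the 2 parental mice, but without 1 cell the Mmp13 difference of E0771-Res1 3 is 1.27, below that of E0771-Res2 1.

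High-score cells with much and with little C1q RNA were compared next, to see whether the same genes moved in both. C1q separates maturing tumor macrophages from monocytes in part, and the C1q genes were left out of this test. The cells were split at the median of the base set, 6.69 C1q UMIs per 10000, with 196 high-score cells at or above it, 223 below it and 32 within 20% of it, so these are ranges and not types. Parental 3 had too few cells, which left 7 mice. Among C1q-rich cells 796 of 7432 genes (10.7%) were higher and 593 (7.98%) lower in high-score cells, and among C1q-poor cells 880 (11.8%) were higher and 733 (9.86%) lower. Glycolysis genes were higher in 17 and 18 of 20 tested (medians 1.35 and 1.45), and other HIF targets in 22 and 21 of 24 (medians 1.36 and 1.68). Interferon genes were lower in 9 and 13 of 14, and MHC class II genes in 7 and 8 of 8. Inhba, which encodes a subunit of activin A, rose in both (2.88 ± 0.32 and 2.81 ± 0.24), and Slpi, a protease inhibitor, was among the largest rises in C1q-rich cells (2.62 ± 0.37).

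The difference of the change between C1q-rich and C1q-poor cells was called for 22 genes (0.296%), none of 20 glycolysis genes and 1 of 24 other HIF targets among them. The latter was Bhlhe40, a transcriptional repressor (0.87 ± 0.18), named after its value was seen. The change was higher in C1q-rich cells for Mgst1, a microsomal glutathione transferase (1.75 ± 0.29), and Itgb7, an integrin chain (1.61 ± 0.25). It was lower for Apoe (-1.21 ± 0.22), Cd72 (-1.37 ± 0.19) and Ms4a7, a gene of mature macrophages (-1.14 ± 0.18). These 5 were called under all 9 alternatives. High-score and other cells were not matched for C1q level on either side of the split, and the part of this in the 5 values was not tested.

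High-score cells were last set against cells chosen in like manner by genes of the NRF2 program. NRF2-high cells were the highest 5% by Gclm, Srxn1, Slc7a11 and Txnrd1, and 44 of them were also high-score cells (10.5% of each set). With these left out, 340 of 3702 genes (9.18%) were higher and 299 (8.08%) lower in high-score cells over 8 mice. Glycolysis genes were higher in 15 of 16 (median 1.07), and other HIF targets in 10 of 15, with 1 lower. Egln3 (3.13 ± 0.27) and Pgf (2.23 ± 0.34) were among the largest rises. The peroxidase Prdx1 (-1.66 ± 0.16) and Cxcl10 (-1.57 ± 0.15) were lower, as were 7 of 14 interferon genes. Of 8 genes of the NRF2 list that were tested, 5 were lower in high-score cells and none was higher, a direction set in part by the choice of the NRF2-high cells.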

How the data were processed

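Single-cell RNA libraries of CD45+ tumor cells from 8 mice were analysed from the deposited UMI counts, which the authors made with Cell Ranger 6.1.2 on mm10 and did not normalize. The depth per cell limits single genes, and intervals cover counting error only. Parental mouse 2 was not analysed here. Cells were selected as the opening states, no doublet caller was run, and cells with more than 2 times the median UMIs of their mouse (14 high-score and 613 other cells) were left out in an alternative. The members and the gene lists were chosen with earlier results of these data known.

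Counts were summed per mouse and kind of cell (at least 10 cells) and tested with edgeR 4.0.16 (quasi-likelihood, TMM, filterByExpr, R 4.3.3), with the mouse as a block where both kinds came from the same mouse. Genes with the mt-, Rpl, Rps or Gm prefixes and the score genes were left out, as were the C1q or NRF2 selection genes where these chose cells. A gene was called at a Benjamini-Hochberg adjusted p under 0.05 over all genes tested. CPM are UMIs per 1000000 UMIs of a sum. Depth, detected genes and mitochondrial share were compared by an exact sign-flip permutation test over mice, two-sided, adjusted over 3 quantities. Named genes were the 10 per direction (5 in the other comparisons) with the largest change among called genes whose mean log2 CPM reached 5, with the same sign in every mouse or no overlap between groups, plus the 4 most abundant of each list. Further list members were named as examples after their values were seen, and some items are not reported here. Alternatives were RLE normalization, DESeq2 1.42.0, no filter on low counts, other blocks, other forms of the score, a marker gate and leaving out each mouse. On simulated data for high-score against other cells (8373 genes, 200 changed by 1.5 on the log2 scale), 91% of the changed genes were recovered. For E0771-Res1 against parental (4776 genes) the value was 50%. For the difference of the change (9526 genes), genes were changed in E0771-Res2 only and tested against parental, and 28% were recovered. The test over all 3 lines, which gave the calls above, was not simulated. Other software was Python 3.11.15, NumPy 2.4.6, pandas 2.3.3, SciPy 1.17.1 and matplotlib 3.10.9.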

Additional observations from a re-analysis of the deposited data

Results flagged for a closer look

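The change from the other cells to high-score cells differed between the tumor lines, by the edgeR test of the difference itself, for 8 genes of sufficient level. Changes are given on the log2 scale for parental, E0771-Res1 and E0771-Res2 in that order. They were 0.74, 2.69 and 0.99 for Mmp13 (adjusted p = 0.000638, 0.0604 without the 1 cell that held 74.7% of the Mmp13 UMIs of E0771-Res1 3, and 0.00617 without the highest cell of each mouse), 0.99, 2.58 and 1.31 for Mmp12 (adjusted p = 0.00065) and 3.82, 2.39 and 2.02 for Spp1 (adjusted p = 0.00139). Cxcl3 changed by 6.12, 3.93 and 2.56 (adjusted p = 0.0432). The chemokine Ccl5 changed by 0.26, -0.88 and 0.18 (adjusted p = 0.0245) and the monocyte chemokine Ccl2 by -0.94, -0.78 and 0.36 (adjusted p = 0.0444). The interferon-induced gene Ifit1bl1 changed by -0.83, -3.09 and -0.52 (adjusted p = 0.0251) and the immediate early gene Egr1 by 0.45, 0.50 and -1.002 (adjusted p = 0.0251). Spp1 lost its call with DESeq2 (adjusted p = 0.273) and without parental 3 (0.155). DESeq2 called none of Ccl2, Ccl5, Cxcl3, Egr1 and Ifit1bl1. Each of these 5 also lost its call without at least 1 mouse, with adjusted p of 0.197 for Ccl2 without E0771-Res2 1, 0.258 for Ccl5 without E0771-Res1 2, 0.223 for Cxcl3 without parental 1, 0.269 for Egr1 without E0771-Res2 3 and 0.389 for Ifit1bl1 without E0771-Res1 1. The sizes of some changes rested on single cells. Without the high-score cell of each mouse that held the most UMIs of the gene, the changes were 2.41, 2.49 and 1.23 for Cxcl3, where parental no longer exceeded E0771-Res1. They were -1.002, -1.59 and -0.18 for Ccl5, -0.21, -0.17 and -1.59 for Egr1, -0.49, 1.85 and 0.46 for Mmp13 and -0.07, 2.14 and 0.94 for Mmp12. This turned the sign of Ccl5 in parental and E0771-Res2, of Egr1 in parental and E0771-Res1, and of Mmp13 and Mmp12 in parental. The changes were 3.05, 1.88 and 1.4995 for Spp1, -1.76, -4.07 and -0.91 for Ifit1bl1 and -1.21, -0.9987 and 0.00091 for Ccl2, with no change of sign. By mouse, Cxcl3 was then lower in high-score cells of E0771-Res1 3, E0771-Res2 1 and E0771-Res2 3 (-0.88, -3.85 and -0.09). In this setting the edgeR call was lost for Cxcl3, Ccl2 (adjusted p = 0.167) and Egr1 (0.110), while Mmp13, Mmp12, Spp1, Ccl5 and Ifit1bl1 passed. Cells were left out on the high-score side only and by the gene itself, so these values settle no call.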

How the results depend on the processing

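The comparison of high-score with other cells kept its counts within 1.5 times under all alternatives, with 1074 genes higher and 934 lower without the mouse as a block. Counts between tumor lines moved. With DESeq2 they were 7 higher and 1 lower (E0771-Res1 against parental), 3 lower (E0771-Res2 against parental), 11 and 17 (E0771-Res2 against E0771-Res1) and 3 for the difference of the change. They were 34 and 17, 51 and 53, 82 and 78, and 46 with no filter on low counts. Without high-UMI cells they were 14 lower (E0771-Res2 against parental) and 13 and 34 (E0771-Res2 against E0771-Res1), and with the marker gate 11 and 19 for the latter. Same-numbered mice of different lines did not deviate together (correlations from -0.03 to 0.09), so the numbers were not taken as pairs. With the replicate number as a block, counts were 3 and 0, 12 and 7, and 10 and 11, and 51 for the difference of the change. C1q-poor cells had 1177 lower genes with no filter, and the difference by C1q 31 and 26 with DESeq2 and 66 and 43 with no filter. Against NRF2-high cells DESeq2 gave 185 lower. The UMI difference was -515 with ranks within each mouse and -87.7 after thinning, both without a call, and the gene difference -92.5 after thinning.

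Leaving out each mouse gave 936 to 1150 higher and 820 to 944 lower genes against the other cells. It gave 0 to 6 and 0 to 1 (E0771-Res1 against parental), 0 to 18 and 1 to 13 (E0771-Res2 against parental), 0 to 15 and 1 to 15 (E0771-Res2 against E0771-Res1), and 12 to 52 for the difference of the change. For C1q-rich cells the ranges were 620 to 761 and 431 to 584, for C1q-poor cells 645 to 849 and 600 to 772, and for their difference 5 to 15 and 6 to 12. They were 265 to 337 and 220 to 301 against NRF2-high cells. The mitochondrial difference ran from -0.42 to -0.38, the UMI difference from -664 to -438 and the gene difference from -221 to -176. Mean shares of high-score cells ran from 3.77% to 5.46%, 4.55% to 5.65% and 4.68% to 5.34%.

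Among genes that did not pass, small values changed sign. With no filter these were Ccl4 (-0.055), Pcna (-0.0094) and Csf3r (-0.017). Ranks within each mouse gave Rbx1 0.0060, Cox4i1 0.0067, Cd209a 0.049 and Csf3r -0.0047. The highest 10% gave Ccl5 0.0038 and Krt8 0.31, and the score without Hilpda Pcna -0.0010 and Krt8 0.48. Trbc2 was 0.079 after thinning. The marker gate gave Cox4i1 0.012, Ccl4 -0.19 and Ccl5 0.0071, and leaving out high-UMI cells Cox4i1 0.0086 and Ccl4 -0.03. Over single mice left out, Cox4i1 ran from -0.028 to 0.029, Ccl4 from -0.079 to 0.18, Csf3r from -0.057 to 0.16 and Krt8 from -0.57 to 0.33. The cause of these moves was not tested.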
